A study of Mus musculus with 2 samples.

Results

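Mir143, Mir145a and Mir145b are the mouse genes of the smooth muscle microRNAs (miRNAs) miR-143 and miR-145. They were picked by gene identifier, and make up 3 of the 1973 miRNA genes with a row in the count tables; 2 of the 3 had any count. The RNA came from the hearts of B6NCrl pups taken on postnatal day 0, without treatment or genetic change named in the labels. One library was made per heart: replicate 1 from pup 2 and replicate 2 from pup 3, both of litter 1, with inserts below 30 nt. The design thus has 1 group of 2 samples and no contrast between conditions, and it allows levels, ratios between genes, and the difference between 2 littermates to be described.

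Mir143 and Mir145a lie next to each other on the genome and are known to be cut from a shared primary transcript, which serum response factor and myocardin switch on in smooth muscle. In mouse vessels both miRNAs favour the contractile state of smooth muscle over the dividing, synthetic state. In the mouse embryo the pair is known to be active in the early heart before it becomes a feature of smooth muscle, which in the newborn heart lies in the coronary vessels and the roots of the great arteries. Mir145b was named for its likeness to Mir145a but is a separate locus. Whole heart was used, so fewer cells of a type and less miRNA per cell cannot be told apart in any value given here. Each count is a gene's total, so both arms of a precursor are added up in it.

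The mature sequences of the genes that bracket Mir143 in abundance, and of a cluster pair with nearly as unequal a ratio as Mir143 and Mir145a, are shown because the levels below are set against them. Capitals mark the seed, bases 2 to 8, which pairs with target messages. They come from RefSeq on GRCm38.p6. Mir126a marks endothelium, Mir335 lies in the imprinted gene Mest, Mir208b in the myosin gene Myh7 of cardiomyocytes, and Mir322 and Mir503 are neighbours on the X chromosome.
mmu-miR-126a-3p: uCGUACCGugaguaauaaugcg
mmu-miR-335-5p: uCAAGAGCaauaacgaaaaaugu
mmu-miR-208b-3p: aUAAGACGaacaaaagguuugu
mmu-miR-322-5p: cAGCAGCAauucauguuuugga
mmu-miR-503-5p: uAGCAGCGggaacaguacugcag
The seeds of the first 3 differ from each other, while those of miR-322-5p and miR-503-5p share their leading bases.

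Mir143 was the second most counted miRNA gene in both hearts. Reads with several alignments, 36.6% of replicate 1 and 37.1% of replicate 2, were given to no gene and do not enter this order. Mir143 had 224593 counts on the sense strand in replicate 1 and 350424 in replicate 2, out of 2323450 and 3487183 sense counts on all miRNA genes. As CPM, the count divided by the library's sense total and multiplied by 1000000, this was 96664 CPM in replicate 1 and 100489 CPM in replicate 2. The share of all sense counts was 9.67% in replicate 1 (95% interval 9.63% to 9.70%, exact Clopper-Pearson) and 10.05% in replicate 2 (10.02% to 10.08%). The mean was 9.86% ± 0.271 (SD, n = 2). The intervals of the libraries did not overlap. With 1 library per heart, heart and library cannot be told apart. Every interval given covers the error of counting alone: the reads carry no molecular identifiers, and PCR copies of a molecule are counted apart.

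Mir145a was counted far less often and ranked 60 in replicate 1 and 57 in replicate 2. It had 3916 counts in replicate 1 and 6066 in replicate 2, or 1685 and 1739.5 CPM. Its share was 0.169% in replicate 1 (0.163% to 0.174%, exact Clopper-Pearson) and 0.174% in replicate 2 (0.170% to 0.178%), with a mean of 0.171% ± 0.00382 (SD, n = 2). Here the intervals of the libraries overlapped.

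Mir145b had 0 counts in both hearts, on either strand. Taking 3 counts as the limit that a count of 0 allows, its level was below 1.29 CPM in replicate 1, and below 0.860 CPM in replicate 2. Mir145a was therefore at least 1305-fold higher than Mir145b in replicate 1 and at least 2022-fold higher in replicate 2. A row at 0 in both hearts was the common case, found for 1358 of the 1973 genes (68.8%). The precursors of Mir145a and Mir145b share a stretch of 17 nt. Reads with several alignments (36.6% of replicate 1, 37.1% of replicate 2) were given to no gene, so a short read from within that stretch would be missing from both rows.

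In the order of all genes Mir143 stood apart from its neighbours. Only Mir126a, which is made in endothelium, ranked above it, and the lower Mir126a value (105610 CPM, replicate 2) was above both Mir143 values. The log2 ratio of Mir143 over Mir126a was -0.16 in replicate 1 and -0.07 in replicate 2. Mir335 came next below, with 72987 and 78677 CPM, so that Mir143 was 1.30-fold higher by the means. Mir143 was 1.41-fold higher than Mir208b and 1.48-fold higher than Mir99a, a miRNA clustered with a let-7 gene. None of these 4 genes overlapped Mir143 in range. Levels of different miRNAs also depend on how well each is captured in a library, which was not measured and which the SD over pups does not cover. Genes whose reads have several alignments may stand too low in this order, since such reads were given to no gene.

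Mir145a had no such separation. Of the 6 genes next to it in rank, Mir298, Mir483, Mir148a and Mir181d had ranges that overlapped its own. Mir298, Mir483 and Mir148a were above it in replicate 1 and below it in replicate 2, while Mir181d was below it in both, by the least in replicate 2 (1729 against 1739.5 CPM). Mir483, which lies in the fetal growth gene Igf2, had 1908 CPM in replicate 1 and 1615 in replicate 2, on both sides of Mir145a. In ranges that did not overlap, Mir130b lay above Mir145a in both hearts, at 1763 and 1810 CPM, and Mir361 lay below it at 1423 and 1458 CPM.

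**Figure D1:**
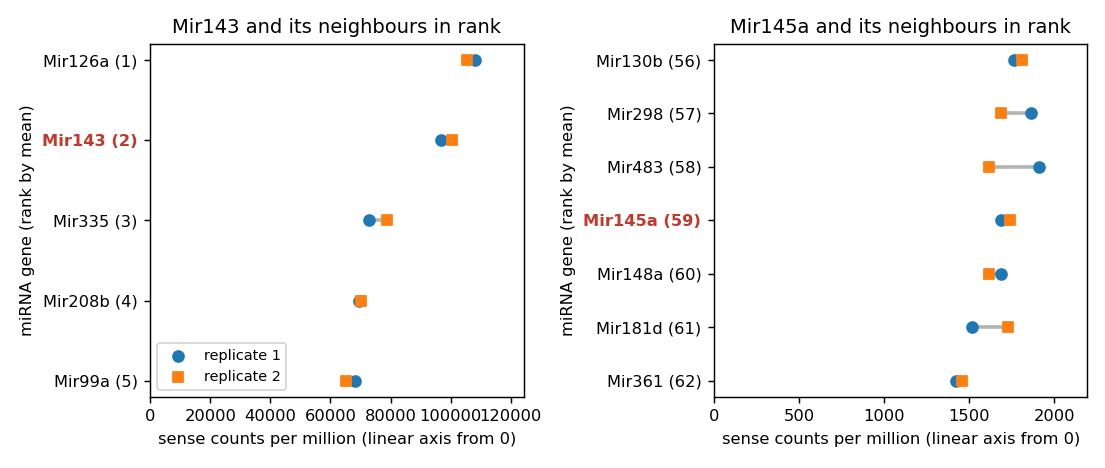
Sense CPM (horizontal, linear from 0) of Mir143 and of Mir145a with the genes next to them in rank (vertical, rank by mean in brackets); circles are replicate 1, squares replicate 2, and grey lines join the pups. Mir143 overlaps none of its neighbours, while Mir145a overlaps Mir298, Mir483, Mir148a and Mir181d.

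**Figure D2:**
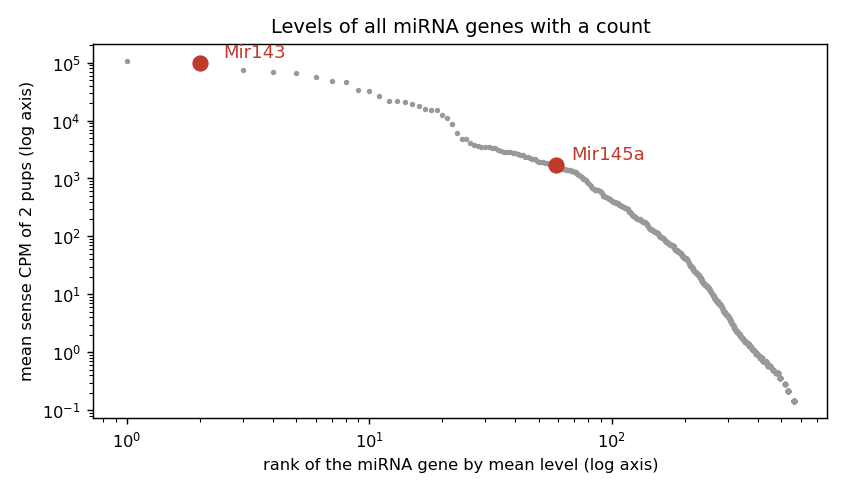
Mean sense CPM over 2 pups (vertical, log axis) against rank (horizontal, log axis) for every miRNA gene with a count, 1 point per gene. Mir143 lies at rank 2 and Mir145a at rank 59, 57.6-fold apart; Mir145b, at 0 counts, cannot be drawn on a log axis.

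The excess of Mir143 over its cluster partner differed between the hearts by less than the counting error. In sense counts Mir143 exceeded Mir145a 57.4-fold in replicate 1 (55.6 to 59.2, exact interval) and 57.8-fold in replicate 2 (56.3 to 59.3). The mean log2 ratio was 5.85 ± 0.00737 (SD, n = 2). Of the counts of the pair, Mir145a thus held 1.71% in replicate 1 and 1.70% in replicate 2. Between the pups the log2 ratio differed by 0.01, with a 95% Wald interval of -0.05 to 0.07, and the exact two-sided Fisher test gave p = 0.733 and an adjusted p of 0.884 over 39 cluster pairs. Per nucleotide of annotated precursor, a scale added after the data were seen, the log2 ratio was 5.999.

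Other miRNA clusters of the heart gave this ratio a setting. Of 45 pairs of neighbouring miRNA genes, listed with earlier results of these data known, 39 had enough counts of each gene, 4 lacked a row for a member, and 2 had too few counts. Some genes stand in more than 1 pair. Unequal pairs were frequent: in 17 of the 39 the more abundant gene exceeded its partner by 10-fold or more, and in 8 by less than 2-fold. Many of the 17 held a gene that shares 20 nt or more with another miRNA gene. Reads lost to multiple alignment may have shifted their ratios. The median absolute log2 ratio was 2.63. Mir143 and Mir145a were the 7th most unequal pair. Each of the 6 pairs above them held a gene that shares 20 nt or more with another miRNA gene. Reads of such a gene may be lost to multiple alignment. Mir145a itself shares 17 nt with Mir145b, so short reads from that stretch may be missing from its count too. Among the 21 listed pairs without such sharing of 20 nt or more (median 2.26), none was more unequal than Mir143 and Mir145a. No test was made of this order, and the list does not hold every pair of a cluster. Mir17, listed with Mir18 and Mir20a, was not paired with its cluster neighbour Mir19a (29 and 38 counts, against 19576 and 30421 of Mir17). That pair would be more unequal than Mir143 and Mir145a. Whether Mir19a shares 20 nt with another miRNA gene is not given here.

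The next most unequal of the 21 listed pairs were Mir30d with Mir30b, Mir130b with Mir301b and Mir322 with Mir503. Mir30d, of the miR-30 family, exceeded Mir30b with a log2 ratio of 5.67 ± 0.232 (SD, n = 2), and this ratio differed between the libraries beyond counting error (adjusted p = 4.32e-05, exact Fisher test). The Fisher test of a pair holds no spread between hearts, and no test with such a spread was run on pairs. Mir130b exceeded Mir301b, which belongs to the same family, by 5.34 ± 0.049. Mir322 exceeded Mir503, a pair known to slow the cell cycle, by 5.32 ± 0.0313, with 132847 and 201658 counts of Mir322 against 3370 and 4961 of Mir503. For these last 2 pairs the Fisher test did not pass, with adjusted p of 0.884 for Mir130b and 0.354 for Mir322 (exact). In all, 11 of 39 pairs (28.2%) passed. The change of the Mir143 to Mir145a ratio between pups was the third smallest of the 39, against a median absolute change of 0.12 on the log2 scale. That order takes no account of counting error, which is larger in pairs with fewer counts.

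**Figure D3:**
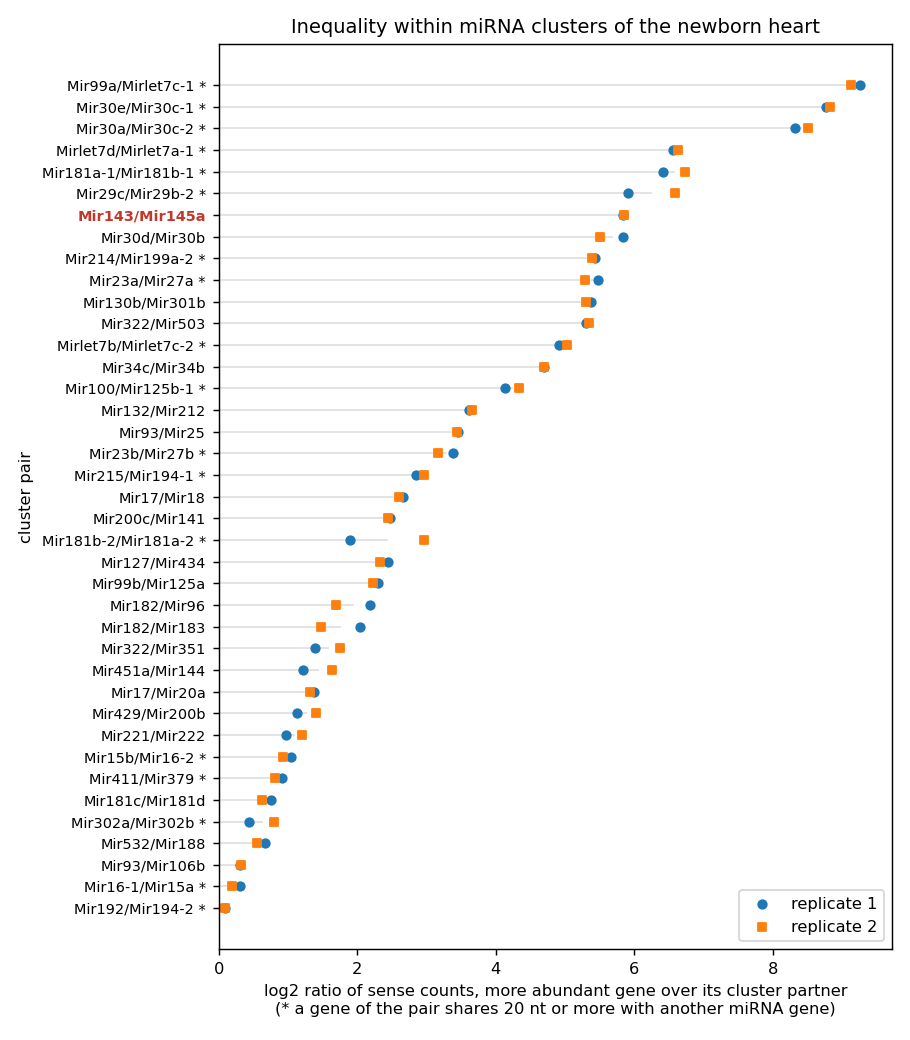
Log2 ratio of sense counts of the more abundant gene over its partner (horizontal) for 39 cluster pairs (vertical), with circles for replicate 1 and squares for replicate 2; an asterisk marks pairs with a gene that shares 20 nt or more with another miRNA gene. Mir143 over Mir145a, at 5.85, is the highest of the drawn pairs without an asterisk, and its 2 points coincide. Mir145a shares 17 nt with Mir145b, which is under the limit for an asterisk.

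Mir143 and Mir145a differed little between the 2 hearts. After scaling by TMM (trimmed mean of M values), Mir143 was 1.03-fold higher in replicate 2 (log2 ratio 0.04, 95% exact interval 0.03 to 0.05). Mir145a was 1.02-fold higher (log2 ratio 0.03, interval -0.03 to 0.09). Both intervals take the TMM sizes as known. For Mir143 the log2 ratio was 0.01 by upper quartile scaling and 0.06 by total counts, both outside its interval. Given the depth, the exact two-sided binomial test with Benjamini-Hochberg adjustment over 348 genes passed for Mir143 (adjusted p = 4.78e-23) and not for Mir145a (adjusted p = 0.581). That is 1 of the 2 members tested. Of all 348 genes 27.9% passed, with 17.8% higher and 10.1% lower in replicate 2. Of the 75 genes that averaged at least 1000 CPM, as both members did, 52 passed. The test compares 2 libraries at counting error, not 2 conditions. At the 575017 counts of Mir143 over both libraries, a 1.03-fold difference passes. With the spread between the pups estimated across genes (coefficient of variation 20.7%, edgeR's common dispersion) and its exact negative binomial test, Mir143 no longer passed (adjusted p = 1) and 7 genes (2.01%) did. That spread came from the same 2 libraries, so it counts the difference under test as noise. It is 1 value for all 348 genes, and the spread of genes as abundant as Mir143 was not estimated apart. At such a spread a 1.03-fold difference could not pass.

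All 75 genes that averaged at least 1000 CPM lay within 1.5-fold between the pups, and the median absolute log2 ratio was 0.09. There 17 genes had a smaller absolute log2 ratio than Mir143 and 12 a smaller one than Mir145a. By this measure, the only one that 2 libraries allow, the 3 genes nearest to Mir143 were Mir15a, Mir214 and Mir188, each with a log2 ratio of 0.04. Likeness over 2 samples is a description and says nothing of joint behaviour elsewhere. Markers of epithelia, a cell type that the dissected tissue could also hold, moved between the same 2 libraries by far more: the 7 listed genes summed to 0.0208% of sense counts in replicate 1 and 0.0631% in replicate 2. Their part in the small difference of Mir143 was not tested.

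**Figure D4:**
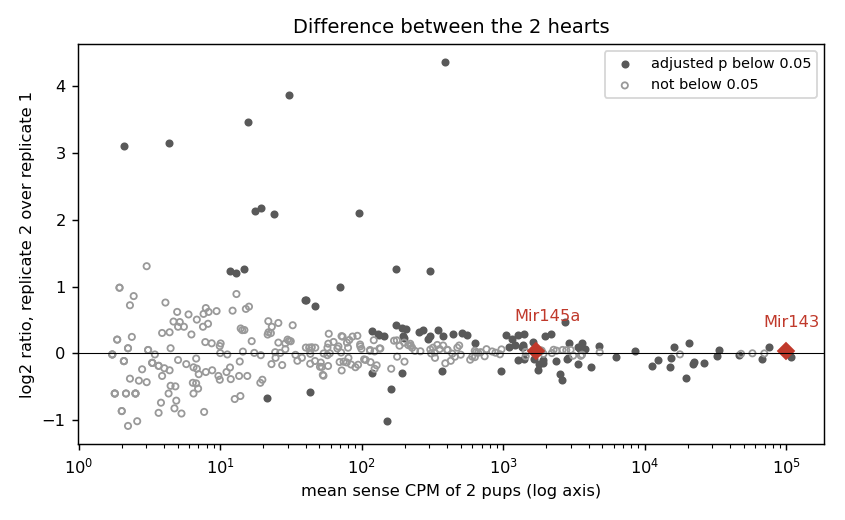
Log2 ratio of replicate 2 over replicate 1 (vertical) against mean sense CPM (horizontal, log axis), 1 point per tested gene with a count in both pups; filled points had an adjusted p below 0.05 by the exact binomial test, and diamonds mark the members. Mir143 (0.04) and Mir145a (0.03) lie close to 0.

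Mir143 was of similar abundance to the listed markers of heart muscle and endothelium, and far above those of the other cell types listed. The cardiomyocyte list (Mir208a, Mir208b and Mir499, all encoded within myosin heavy chain genes) was present at 8.95% ± 0.0832 (SD, n = 2), in libraries labelled as heart. The muscle miRNAs Mir1a-1 and Mir133a-1, with at most 25 counts in either heart, are not in that list. Their reads may be lost to multiple alignment. Mir143 exceeded the sum of that list 1.10-fold, with a log2 ratio of 0.10 in replicate 1 and 0.18 in replicate 2. It exceeded the mesenchymal list, Mir214 and the Mir199 genes, 49.7-fold, with a log2 ratio of 5.64 ± 0.0111, although Mir199 reads may be lost to multiple alignment. Of the blood markers, Mir143 exceeded the erythroid Mir451a and Mir144 together 169-fold and the myeloid Mir223 300.1-fold. It exceeded Mir122, the miRNA of liver, 1953-fold. Over the epithelial list its log2 ratio was 8.86 in replicate 1 and 7.32 in replicate 2.

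Mir145a had the level of a minor marker. The cardiomyocyte sum exceeded it 52.3-fold and Mir126a 62.4-fold. It lay slightly below the mesenchymal list (log2 ratio -0.21 ± 0.0185) and above the erythroid list (1.55 ± 0.181) and Mir223 (2.38 ± 0.0689). Mir214, with 4118 and 6424 counts, was close to it in level. Against the epithelial list the log2 ratio of Mir145a was 3.02 in replicate 1 and 1.46 in replicate 2, the widest spread of any list.

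**Figure D5:**
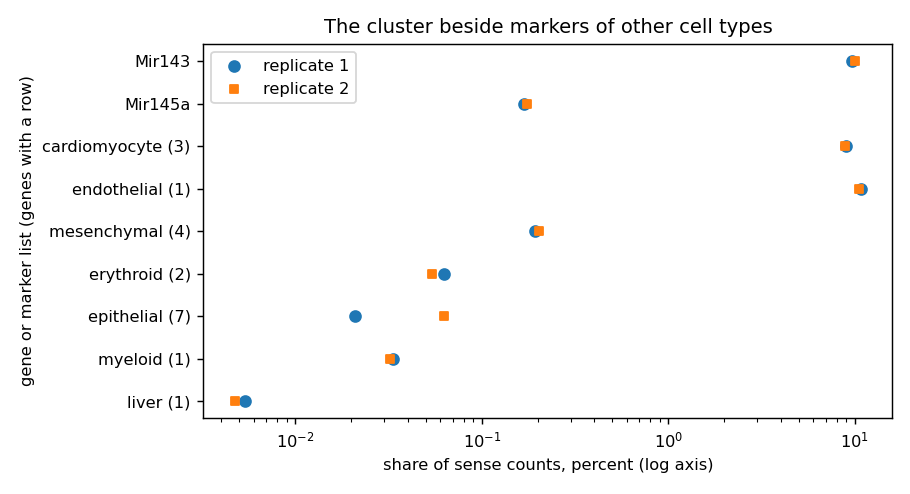
Share of sense counts (horizontal, percent, log axis) of Mir143, of Mir145a and of the summed markers of other cell types (vertical, number of genes with a row in brackets); circles are replicate 1 and squares replicate 2. Mir143 (mean 9.86%) lies between the cardiomyocyte and endothelial markers, and Mir145a (mean 0.171%) beside the mesenchymal list.

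Other miRNAs known to act on the state of vascular smooth muscle were counted below Mir143. Of 26 listed symbols 23 matched a row, 1 of them (Mir146a, here Mir146) through a RefSeq synonym. None of the 23 exceeded Mir143, while 3 exceeded Mir145a and 20 did not. The 3 were Mir322 (57502 CPM ± 461, SD, n = 2), Mir21a, which favours smooth muscle growth (20582 ± 1761), and Mir130a (16089 ± 837). Mir221 and Mir222, which are linked to the dividing, synthetic state, had 261 and 133 counts in replicate 1 and 454 and 198 in replicate 2. Mir145a exceeded Mir221 14.1-fold and Mir222 30.0-fold. Mir146, with 127 and 213 counts, was lower than Mir145a by 29.6-fold. Mir10a, which is linked to smooth muscle differentiation of stem cells, had 2667 and 4874 counts, and Mir145a exceeded it 1.35-fold. Mir133a-1 and Mir1a-1, the muscle miRNAs also found in vessel walls, had at most 25 counts in either heart. They are among the 11 of the 23 genes with a stretch of 20 nt in common with another miRNA gene, whose reads may be lost to multiple alignment.

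Between the pups 5 of the 20 tested genes of this list were higher in replicate 2 by the exact binomial test and 0 were lower, beside 17.8% and 10.1% of all genes. The 5 were Mir21a, Mir130a, Mir10a, Mir195a and Mir29a, with log2 ratios of 0.16, 0.09, 0.27, 0.10 and 0.35. None passed edgeR's negative binomial exact test, whose spread was estimated from the same 2 libraries. The list's median log2 ratio was 0.07, against 0.03 over all genes tested.

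The opposite strand held no read in the rows of Mir143 and Mir145a. With 3 counts as the limit, the opposite strand could hold at most 0.00134% of the Mir143 counts in replicate 1 and 0.000856% in replicate 2, and at most 0.0766% and 0.0495% of the Mir145a counts. This was the common pattern: of 208 rows with 100 or more reads in replicate 1, 189 had none on the opposite strand, as had 207 of 231 rows in replicate 2. Counting both strands therefore left the counts of the pair as they were.

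The locus lies on the minus strand of chromosome 18 in GRCm38, which is the assembly mm10. Mir143 occupies positions 61649196 to 61649258 and Mir145a positions 61647825 to 61647894, 1301 nt apart, with Mir143 the upstream gene. In GENCODE M21 neither overlaps another gene. The long non-coding RNA gene Carmn, known as the host gene of the pair, ends 366 nt upstream of Mir143 there. In RefSeq Carmn runs from 61645878 to 61665538 and spans both precursors. Bvht (Braveheart), a long non-coding RNA of cardiac commitment in mouse stem cells, lies on the plus strand and ends 352 nt before Mir145a. Mir145b lies at 69022199 to 69022273, also on the minus strand, 7.37 Mb from Mir143, and overlaps no annotated gene.

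The annotated precursors differ in length and composition. Mir143 has 63 nt with 55.6% G and C, Mir145a 70 nt with 48.6%, and Mir145b 75 nt with 46.7%, against a median of 51.0% over all matched precursors. The folding energy predicted by RNAfold was -36.9 kcal/mol for Mir143, -30.3 for Mir145a and -25.1 for Mir145b. Mir143 and Mir145a share no stretch longer than 5 nt with each other. The longest stretch that Mir143 shares with any other miRNA gene, on either strand, is 11 nt, and for Mir145a it is the 17 nt in Mir145b, so neither gene is among the 923 that share 20 nt or more. The rest of the genome was not searched for matches.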

How the data were processed

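Small RNA libraries of 2 newborn mouse hearts were analysed. The deposited values are counts: whole, unnormalized numbers of reads on each miRNA gene, in 3 columns. The column with the larger total was read as the sense strand; the others are the opposite strand and both strands. Per the deposited file descriptions, reads were placed on mm10 with GENCODE M4; aligner, counter and trimming are not given in the sources used here. The 4 summary rows stayed out of totals: unmapped reads (11.5% and 10.5%), reads aligned to several places (36.6% and 37.1%), reads on no feature (5.93% and 5.62%) and ambiguous reads (0). All reads numbered 5052766 in replicate 1 and 7441784 in replicate 2.

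Identifiers were matched to GENCODE M21 (1894 of 1973; the other 79 had 0 counts). CPM was computed over sense counts. Genes with 10 or more counts over both libraries (348) were tested by an exact two-sided binomial test with TMM sizes (edgeR 4.0.16), Benjamini-Hochberg adjustment and a threshold of 0.05; Mir145b did not pass this filter. Cluster pairs with 10 or more counts of each gene and none at 0 in a library were tested by exact Fisher tests. Counts for 345 genes were simulated with counting error alone and no spread between libraries. There the binomial test called 70.7% of 99 genes changed 1.5-fold, all 52 of those at 50 CPM or more, and 2.05% of 146 unchanged genes. In 300 pairs simulated likewise without change, less unequal than Mir143 and Mir145a, the Fisher test gave an unadjusted p below 0.05 in 5.0%. The chi-square of the counts of the 2 libraries was 29.5 per degree of freedom, so they were treated as separate libraries. Both tests compare 2 libraries of 1 litter at counting error; only the negative binomial alternative adds a spread between libraries. Alternatives covered scaling (total counts, upper quartile, DESeq2 1.42.0 size factors), filters, denominators, pseudocounts and single libraries. RNAfold 2.7.2 gave folding energies.

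The genes, lists and pairs were chosen with earlier results of these data known. Named were the members, up to 3 genes above and 3 below each in rank, the 3 genes of 1000 CPM or more with the log2 ratio between pups nearest to that of Mir143, and genes of the lists and pairs.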

Additional observations from a re-analysis of the deposited data

How the results depend on the processing

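The CPM of the members moved with the denominator by more than the SD over pups. Mir143 stood at 98576 CPM, and Mir145a at 1712 CPM. With all reads of the library as the denominator they had 45769 and 795. With both strands in the total they had 92029 and 1599. Without genes that share 20 nt they had 106489 and 1849.95. Totals without Mir126a, added after the data were seen, gave 110368 and 1917, and a total without Mir143 gave 1899.8 for Mir145a. The log2 ratio of Mir143 over Mir145a was 5.84 with a pseudocount of 10 CPM and 5.999 per precursor nucleotide; a pseudocount of 1 CPM and counts on both strands left it within the SD, and either library alone gave 5.84 to 5.85.

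The count of genes that differed between pups was 97 and stayed between 86 and 99 under other scalings and filters, and fell to 7 with the negative binomial test, by whose construction the spread between pups is added to counting error. The log2 ratio of Mir143 between pups lay between 0.01 (upper quartile) and 0.06 (total counts), with adjusted p (exact binomial) from 1.89e-45 to 0.0171 among the counting tests. Ratios over the marker lists kept their sign in either library alone. Leaving out a library leaves no difference between pups to test. Low counts kept Mir145b, 2 pairs and 3 of the 23 smooth muscle genes out of the tests. Litters, sexes and other ages were not analysed here.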

Other observations

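Of 50 miRNA gene rows placed on chromosome 18, 12 had a sense count in replicate 1 and 13 in replicate 2, and Mir143 held 98.0% of the chromosome's sense counts in both. Reads with several alignments were given to no gene and are not in this share. After Mir145a the next was Mir187, with 412 and 750 counts.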
